A study of Mus musculus with 8 samples.

Results

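The interferon-inducible GTPases described here were 10 genes, 4 of the guanylate-binding protein (GBP) family (Gbp2, Gbp3, Gbp5 and Gbp7) and 6 of the immunity-related GTPase (IRG) family (Irgm1, Irgm2, Igtp, Iigp1, Ifi47 and 9930111J21Rik2). They were taken by gene symbol from a table of 12256 genes, and all 10 had a row. They were chosen by family and by their log2 values in this same comparison of groups, seen in an earlier analysis in which 9930111J21Rik2 stood out for its difference, so the values are given as a description without a test.

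RNA came from monocyte-derived dendritic cells (moDCs), antigen-presenting cells that differentiate from blood monocytes in inflamed tissue. They were sorted as CD45hi CD11b+ Ly6G- Ly6C+ CD11cint MHCII+ cells from hindbrain and spinal cord of C57Bl/6 mice with experimental autoimmune encephalomyelitis (EAE), a model of multiple sclerosis induced here with the MOG35-55 peptide. NPC mice had received 1000000 neural precursor cells in 10 µL PBS into the cerebrospinal fluid at the disease peak, 2 to 4 days after onset. The labels disagree in part: the condition label gives the route as ic where the protocol gives it as intrathecal, and the protocol puts treatment at 4 days after onset. PBS mice had received 10 µL PBS, and cells of both groups were taken 7 days after treatment. Each group had 4 libraries (NPC A to D and PBS 1 to 4), each from a pool of 4 to 7 mice, so the spread between libraries is a spread between pools. All mice of both groups were immunised and ill, the age of the mice is not given in the sources used here, and there was no group without EAE or without an injection.

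The members lie in clusters. In GENCODE vM21 on mm10, the 4 GBP genes lay on chromosome 3 between 142493978 and 142638008, a stretch of 144 kb that also held Gbp2b. Irgm1, Ifi47 and 9930111J21Rik2 lay on chromosome 11 between 48861968 and 49096974, within 235 kb that held 7 further genes of the table, among them Tgtp1, Tgtp2, Gm5431 and 9930111J21Rik1. Igtp and Irgm2 lay on chromosome 11 between 58199556 and 58222782, within 23.2 kb, and their annotated spans overlapped on the same strand. Iigp1 lay on chromosome 18 between 60376027 and 60392634. All 10 are annotated as protein-coding.

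GBPs and IRGs are dynamin-like GTPases that interferon-γ, and more weakly type I interferons, induce in most mouse cells, in part through IRF1. GBPs assemble on vacuoles that hold bacteria or protozoa, help to break them open and expose microbial products to inflammasomes. Effector IRG proteins attack the same vacuoles, while the regulatory IRGM proteins sit on the cell's own membranes and keep the effectors from acting there. Loading of both families onto vacuoles depends on autophagy proteins that conjugate ATG8-like proteins, and several GBPs carry a lipid group added by prenylation. In EAE, T cells that enter the tissue are a known source of interferon-γ.

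Promoter sequences of RefSeq on GRCm38.p6, from 250 bases before to 50 after each annotated start, were found for 9 members, all but Iigp1. The core of the interferon-stimulated response element (ISRE), to which IRF proteins bind, was searched on both strands as GAAA, any 2 bases and GAAA again. These letters occurred in 7 of these 9 genes, against 3.99% of 27025 mouse genes and 3.44% of their 32851 promoters. All 4 GBP genes and 3 of 5 IRG genes (Irgm1, Igtp and Irgm2) held them, while the windows of Ifi47 and 9930111J21Rik2 did not contain these letters. The 30 bases around the matches are shown because their form differs between the 4 GBP genes and the 3 IRGM genes. The GBP promoters carry it as TTTC, 2 bases and TTTC on the strand of the gene, and the IRGM promoters as GAAA, 2 bases and GAAA. No other IRG member had a match to compare, so the form is not a mark of the whole IRG family. Capitals mark the match, and sequences read 5′ to 3′ on the strand of the gene.
Gbp2 (chr3:142620594-142620623, plus strand): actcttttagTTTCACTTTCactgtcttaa
Gbp3 (chr3:142559992-142560021, plus strand): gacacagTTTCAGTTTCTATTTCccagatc
Gbp5 (chr3:142496759-142496788, plus strand): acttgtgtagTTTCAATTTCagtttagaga
Gbp7 (chr3:142530273-142530302, plus strand): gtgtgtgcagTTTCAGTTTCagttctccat
Irgm1 (chr11:48871428-48871457, minus strand): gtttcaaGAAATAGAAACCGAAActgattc
Igtp (chr11:58199512-58199541, plus strand): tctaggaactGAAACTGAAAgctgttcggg
Irgm2 (chr11:58214903-58214932, plus strand): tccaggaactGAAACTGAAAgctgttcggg

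Gbp3 and Irgm1 each held 2 overlapping matches. The matches of Gbp2 and Irgm1 lie before the RefSeq start but within an exon of another annotated transcript in GENCODE. The matches of Igtp and Irgm2 had the same 10 letters, and their promoters were identical at 245 of 270 aligned positions (90.7%). Both also held the palindrome TTCNNNGAA, the form of the interferon-γ activated site (GAS), just before the ISRE letters. It occurred in 4 of the 9 genes with a promoter (Gbp5, Gbp7, Igtp and Irgm2), against 9.55% of all genes and 8.30% of all promoters. The 100 bases that end with the ISRE letters are shown for this pair, with both motifs in capitals.
Igtp (chr11:58199432-58199531, plus strand): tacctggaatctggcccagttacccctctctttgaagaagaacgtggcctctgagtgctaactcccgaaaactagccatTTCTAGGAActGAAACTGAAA
Irgm2 (chr11:58214823-58214922, plus strand): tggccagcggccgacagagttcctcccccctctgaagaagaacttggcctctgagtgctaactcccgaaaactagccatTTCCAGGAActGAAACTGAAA

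The 250 bases before the annotated start of 9930111J21Rik2 are shown because it is the member whose groups did not overlap and because neither motif matched there. A match, or its absence from this window, is a description of letters and not of binding.
9930111J21Rik2 (chr11:49051243-49051492, minus strand): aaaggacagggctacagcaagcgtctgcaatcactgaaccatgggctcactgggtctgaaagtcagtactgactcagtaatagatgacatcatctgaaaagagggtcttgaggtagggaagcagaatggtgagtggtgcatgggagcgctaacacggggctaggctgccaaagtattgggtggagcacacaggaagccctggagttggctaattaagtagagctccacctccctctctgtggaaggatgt

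Values are the authors' log2 normalised expression, which has the form of log2 reads per 1000000 reads of a scaled library and is not divided by gene length. Differences are NPC minus PBS on that scale, with the standard error (SE) and 95% interval of a limma fit over all 12256 genes. Library depth differed: the table held 2653818 to 7003542 reads in NPC libraries and 7702189 to 21068166 in PBS libraries. Across 11368 genes with annotation, the difference ran against the GC content of the transcript (Spearman rho −0.367, across genes, which are not independent replicates), and all 10 members had a GC content under the median of 49.6%. In NPC A and PBS 1, Fos, an immediate-early gene induced by handling and stress, was at 8.28 and 7.95, against 9.65 to 10.18 in the other 6 libraries. The markers of the sort were present, with Ptprc (CD45), Itgam (CD11b) and the MHC class II gene H2-Ab1 at 9.52 or more in every library. Ly6c2 (Ly6C) was at 8.16 to 8.99 and Itgax (CD11c) at 7.11 to 7.74, while the dendritic cell genes Cd209a and Mgl2 were at 0.51 to 5.42. No gene of the table passed an adjusted p of 0.05 (0 of 12256, 0%, limma with Benjamini-Hochberg adjustment), with 1387 genes at an unadjusted p under 0.05, and voom weights also called 0 genes, with 1576 at an unadjusted p under 0.05.

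Most of the GTPases were among the strongly expressed genes of these cells. In the mean over all libraries, 9 of the 10 stood at or above the 90.5th percentile of the table, up to the 98.8th for Gbp2, and 9930111J21Rik2 at the 79.0th. These ranks do not allow for transcript length. Ranked per kilobase among genes with annotation, Gbp2 stood at percentile 98.6, Irgm2 at 88.6 and 9930111J21Rik2 at 62.3. In reads, members were covered by 163 (9930111J21Rik2 in NPC B) to 11242 (Gbp2 in PBS 2) reads in a library. Per kilobase of transcript, the mean level on the log2 scale was highest for Gbp2 at 7.64, followed by Ifi47 at 7.21, Iigp1 at 6.35 and Igtp at 6.21. Irgm1, Gbp7 and Gbp3 followed closely together at 5.89, 5.87 and 5.86, then Gbp5 at 5.46, Irgm2 at 5.06 and 9930111J21Rik2 at 3.20. Irgm1 stood above Gbp7 in 4 of 8 libraries and Gbp7 above Gbp3 in 3 of 8, so the order of these 3 genes was within the spread. Iigp1 over Igtp and Gbp3 over Gbp5 held in 7 of 8 libraries, and every other neighbouring pair kept its order in all 8. The families were interleaved in this order.

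**Figure D1:**
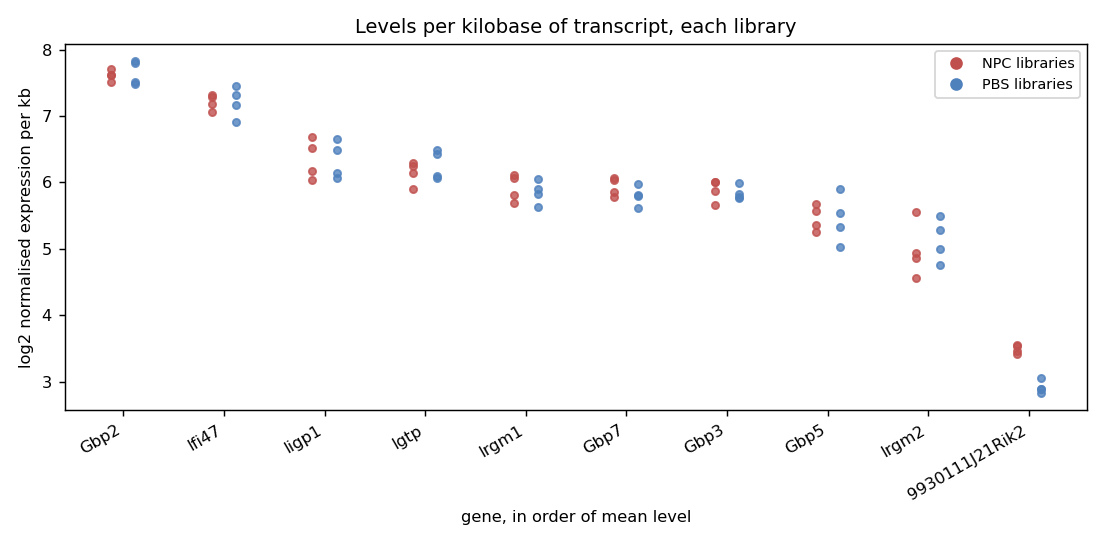
Level of each GTPase gene in log2 normalised expression per kilobase of transcript (y axis), in order of the mean (x axis), with 1 point per library, NPC libraries in red at the left of each gene and PBS libraries in blue at the right. Gbp2 and Ifi47 were highest, and 9930111J21Rik2 was lowest and the gene whose groups do not overlap.

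Among the GBPs, the groups overlapped for all 4 genes. Gbp2, a prenylated GBP that coats vacuoles and bacteria, was at 8.84, 8.95, 9.04 and 8.94 in NPC A to D, against 9.14, 9.17, 8.81 and 8.84 in PBS 1 to 4. PBS libraries stood at both ends of this range, PBS 1 and PBS 2 at the top and PBS 3 and PBS 4 at the bottom or level with the lowest NPC library. The means were 8.94 ± 0.083 in NPC and 8.99 ± 0.19 in PBS (SD, n = 4 each), a difference of −0.05 (SE 0.13, interval −0.32 to 0.23).

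Gbp3, which is recruited to the same vacuoles, was at 7.42, 7.43, 7.30 and 7.09 in NPC A to D, against 7.25, 7.41, 7.19 and 7.21 in PBS 1 to 4. NPC D was the lowest library and NPC B the highest, so the PBS values fell inside the NPC range. The difference was 0.04 (SE 0.11, interval −0.20 to 0.29). Gbp5, a prenylated GBP reported to promote inflammasome assembly, was at 7.19, 6.86, 7.28 and 6.98 in NPC A to D, against 7.51, 7.15, 6.94 and 6.64 in PBS 1 to 4. Here the PBS libraries spanned the whole range, and the means of 7.08 ± 0.19 in NPC and 7.06 ± 0.36 in PBS (SD, n = 4 each) differed by 0.01 (SE 0.17, interval −0.35 to 0.38). Gbp7, a GBP linked to the assembly of the phagocyte NADPH oxidase, was at 8.34, 8.27, 8.56 and 8.53 in NPC A to D, against 8.31, 8.47, 8.11 and 8.28 in PBS 1 to 4. NPC C and NPC D were above all PBS libraries and NPC B was below 3 of them. Its difference of 0.14 (SE 0.12, interval −0.13 to 0.40) was the greatest of the 4 GBPs in the table's own scaling and was −0.06 after a correction for GC content and length. In transcript annotation, 8.93% of the 150-base stretches of Gbp7 occur also in Gm43802, and none of those of Gbp2, Gbp3 or Gbp5 occur in another gene.

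The 3 regulatory IRGM genes also overlapped between groups. Irgm1, which protects host membranes and is needed for resistance to several intracellular bacteria, was at 7.24, 7.28, 6.99 and 6.87 in NPC A to D, against 7.23, 7.07, 7.01 and 6.81 in PBS 1 to 4. NPC A, NPC B and PBS 1 were high and NPC D and PBS 4 low, and the difference was 0.06 (SE 0.13, interval −0.22 to 0.35). Irgm2, a regulator located at the Golgi apparatus, was at 7.35, 6.74, 6.66 and 6.36 in NPC A to D, against 7.29, 7.09, 6.80 and 6.55 in PBS 1 to 4. Both groups ran over more than 0.7 on the log2 scale, with NPC A and PBS 1 at the top and NPC D and PBS 4 at the bottom. The means were 6.78 ± 0.42 in NPC and 6.93 ± 0.32 in PBS (SD, n = 4 each), a difference of −0.15 (SE 0.21, interval −0.60 to 0.29). Igtp, also known as Irgm3 and located at the endoplasmic reticulum and lipid droplets, was at 7.31, 7.26, 7.16 and 6.92 in NPC A to D, against 7.45, 7.50, 7.11 and 7.09 in PBS 1 to 4. PBS 1 and PBS 2 were above all NPC libraries and NPC D was below all PBS libraries, with a difference of −0.13 (SE 0.14, interval −0.42 to 0.17). Because an annotated Irgm2 transcript begins within Igtp, reads from the overlap cannot be assigned to either gene with certainty. Identical 150-base stretches made up 0.854% of the Igtp transcript and 0.482% of the Irgm2 transcript.

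Of the remaining IRG genes, Iigp1 and Ifi47 had overlapping groups and, like Irgm1, no stretch shared with another gene. Iigp1, also known as Irga6 and the effector IRG that is well studied on Toxoplasma vacuoles, was at 8.33, 7.82, 8.17 and 7.68 in NPC A to D, against 8.29, 8.14, 7.79 and 7.72 in PBS 1 to 4. Each group had 2 libraries above 8.1 and 2 below 7.9, and the difference was 0.02 (SE 0.17, interval −0.35 to 0.39). Ifi47, also known as Irgd, was at 8.01, 8.11, 8.14 and 7.89 in NPC A to D, against 8.27, 8.14, 7.99 and 7.74 in PBS 1 to 4. The NPC values lay inside the PBS range, with means of 8.04 ± 0.11 in NPC and 8.03 ± 0.23 in PBS (SD, n = 4 each) and an interval of −0.28 to 0.29 for the difference.

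9930111J21Rik2, listed in RefSeq with the synonym Irgb5, was at 6.14, 6.00, 6.04 and 6.12 in NPC A to D, against 5.64, 5.47, 5.41 and 5.48 in PBS 1 to 4. All 4 NPC libraries were above all 4 PBS libraries, with a gap between the lowest NPC and the highest PBS library that exceeded the spread within either group. The means were 6.07 ± 0.065 in NPC and 5.50 ± 0.098 in PBS (SD, n = 4 each), a difference of 0.58 (SE 0.11, interval 0.34 to 0.81) or 1.49-fold. It was the only member of 10 whose groups did not overlap; over the whole table the groups did not overlap for 6.78% of genes, in 3.53% with NPC higher and in 3.25% with NPC lower. The count of members is not read against these shares, because this contrast chose the gene. In all, 647 genes of the table had a difference at least as large, which puts it at the 94.7th percentile. Leaving out any library gave 0.55 to 0.62, reads thinned to the shallowest library gave 0.48, and the correction for GC content and length gave 0.40.

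The level assigned to 9930111J21Rik2 is uncertain, because 36.1% of the 150-base stretches of its transcript occur also in its neighbours 9930111J21Rik1 or Gm5431. These neighbours had overlapping groups, and 57.7% of the stretches of 9930111J21Rik1 and 15.1% of those of Gm5431 are themselves shared with other genes. 9930111J21Rik1 was at 4.85, 4.18, 4.45 and 4.10 in NPC A to D, against 4.13, 4.10, 4.33 and 3.83 in PBS 1 to 4, a difference of 0.30 (SE 0.18, interval −0.10 to 0.69). Gm5431 was at 5.62, 4.74, 5.70 and 5.66 in NPC A to D, against 5.04, 5.30, 5.16 and 5.16 in PBS 1 to 4, a difference of 0.26 (SE 0.19, interval −0.15 to 0.68), with NPC B below every PBS library. The GC content of the 9930111J21Rik2 transcript is 43.2%. Markers of T and NK cells were higher in NPC libraries for 11 of 14 genes. Groups did not overlap for 2 of the 14, Cd3e and Cd4, with NPC higher, a larger share than the 3.53% of the whole table. The summed level of the list on the linear scale was 113 to 171 in NPC and 97.6 to 119 in PBS. Microglial markers had a higher mean for 6 of 6 genes, with sums of 144 to 262 in NPC and 127 to 223 in PBS, and the groups overlapped for all 6. The other marker lists were mixed. Neural and glial genes counted 2 higher and 3 lower, and moDC identity genes 3 higher and 5 lower. Neutrophil markers counted 4 higher and 1 lower, with a median of 0.02, and B and plasma cell markers 2 higher and 1 lower. The part of other cell types in the difference was not tested, and in bulk RNA a change in the share of a cell type cannot be told apart from a change of RNA per cell.

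**Figure D2:**
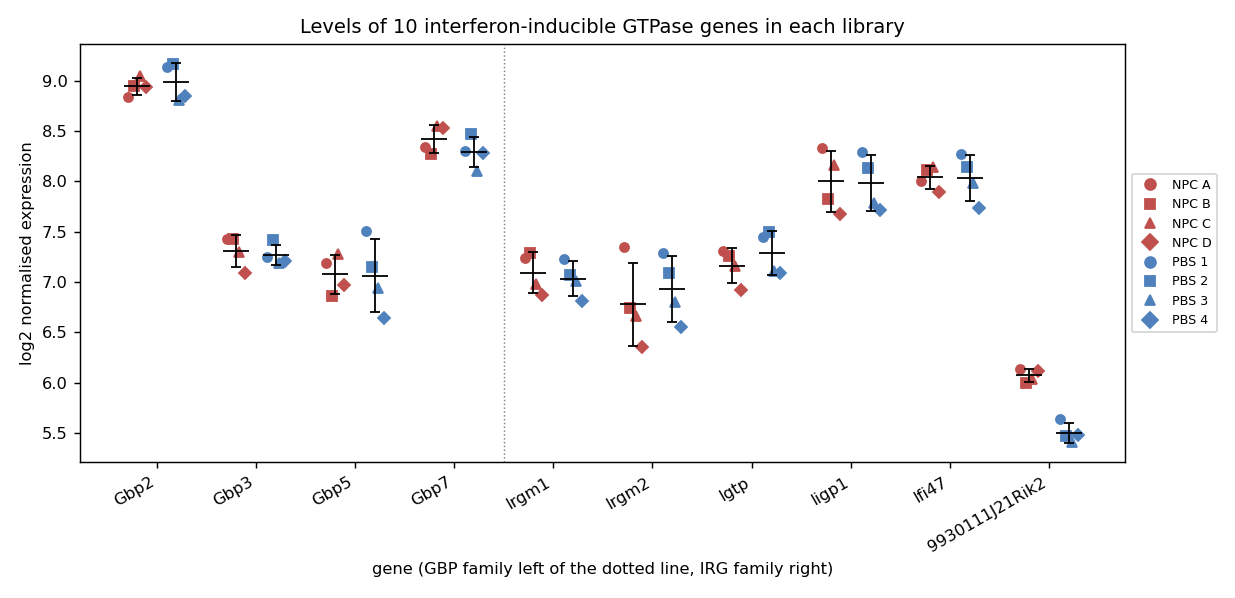
Log2 normalised expression (y axis) of the 10 GTPase genes (x axis) in each library, NPC A to D in red at the left of each gene and PBS 1 to 4 in blue at the right; black bars are group means ± SD (n = 4). The groups overlap for 9 genes, and for 9930111J21Rik2 the NPC libraries lie at 6.00 to 6.14 and the PBS libraries at 5.41 to 5.64.

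Set beside each other, the families gave near-equal differences. Of the GBP members 3 were higher and 1 lower in NPC libraries, with a median difference of 0.03, and of the IRG members 4 were higher and 2 lower, with a median of 0.01. Over all genes of the table the median was 0.02 and 52.5% were higher, and the median size of a difference in either direction was 0.18. The interval of the difference lay within a 1.5-fold change in either direction for 4 of 4 GBP and 4 of 6 IRG genes, and within 2-fold for all 10. Irgm2 and 9930111J21Rik2 were the exceptions at 1.5-fold.

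Each gene was then centred on its mean over the libraries and averaged within its family. The GBP mean was 0.03, −0.04, 0.12 and −0.04 in NPC A to D, against 0.13, 0.13, −0.16 and −0.18 in PBS 1 to 4, so all NPC values lay inside the PBS range. The IRG mean was 0.24, 0.04, 0.03 and −0.19 in NPC A to D, against 0.20, 0.07, −0.14 and −0.26 in PBS 1 to 4, with the groups overlapping over most of their length. NPC minus PBS was 0.04 (SE 0.094) for GBP and 0.06 (SE 0.14) for IRG, or −0.07 and −0.04 after the correction for GC content and length. Without 9930111J21Rik2, the IRG value in the deposited scaling was −0.04 (SE 0.16). The difference between families, IRG minus GBP, was 0.21, 0.09, −0.09 and −0.15 in NPC A to D, against 0.07, −0.06, 0.01 and −0.09 in PBS 1 to 4. The NPC libraries thus spanned more than the PBS libraries in this contrast and enclosed them. Its NPC minus PBS value was 0.03 (SE 0.090) and was −0.08 (SE 0.11) without 9930111J21Rik2, both smaller than their errors.

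The direction of the small differences depended on the processing. In the deposited scaling 7 members were higher and 3 lower in NPC libraries. After quantile normalisation 4 were higher and 6 lower, without PBS 4 3 were higher and 7 lower, and after the correction for GC content and length 1 was higher, 9930111J21Rik2, and 9 lower. Irgm2 and Igtp were lower and 9930111J21Rik2 was higher under each of the 18 alternatives computed for them. These alternatives reuse the same libraries, and without NPC D the differences were −0.01 for Irgm2 and −0.04 for Igtp.

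The table held 19 further genes of these families or related to them, and 18 had a higher mean in NPC libraries, with a median of 0.27. Gm12250, an IRG effector gene also called Irgb10, was the exception at −0.03 (SE 0.20). None passed the adjusted threshold and none had groups that did not overlap. Gbp4 differed by 0.21 (SE 0.16), Gbp6 by 0.11 (SE 0.11), Gbp8 by 0.27 (SE 0.22) and Gbp9 by 0.18 (SE 0.16). Gbp2b, the neighbour of Gbp2, differed by 0.59 (SE 0.34) and Gbp10 by 0.50 (SE 0.29), with as few as 18 and 13 reads in a library, and Gbp11 by 0.35 (SE 0.26). The effector pair Tgtp1 and Tgtp2, known as Irgb6, differed by 0.27 (SE 0.20) and 0.22 (SE 0.14), and the further IRG genes Gm4951, Gm12185, Gm4841 and F830016B08Rik by 0.19, 0.31, 0.36 and 0.40. Gvin1, a very large inducible GTPase gene, differed by 0.43 (SE 0.15), its relative Gm4070 by 0.22 (SE 0.16) and the quinoid IRG gene Irgq by 0.06 (SE 0.16). Reads could be shared with near copies for 76.5% of the stretches of Gbp6, 63.2% of Gbp10, 74.1% of Tgtp1, 71.7% of Tgtp2, 57.7% of 9930111J21Rik1, 15.1% of Gm5431, 2.50% of Gm12185 and over 95% of Gvin1 and Gm4070. The median of these 19 genes was 0.14 to 0.37 over the alternatives, lowest with the correction for GC content and length. With the 7 further Gbp genes included, the GBP mean difference was 0.21, and with 9 further IRG genes, leaving out Irgq, Gvin1 and Gm4070, the IRG mean difference was 0.18. A difference between the listed members and their relatives was not tested.

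**Figure D3:**
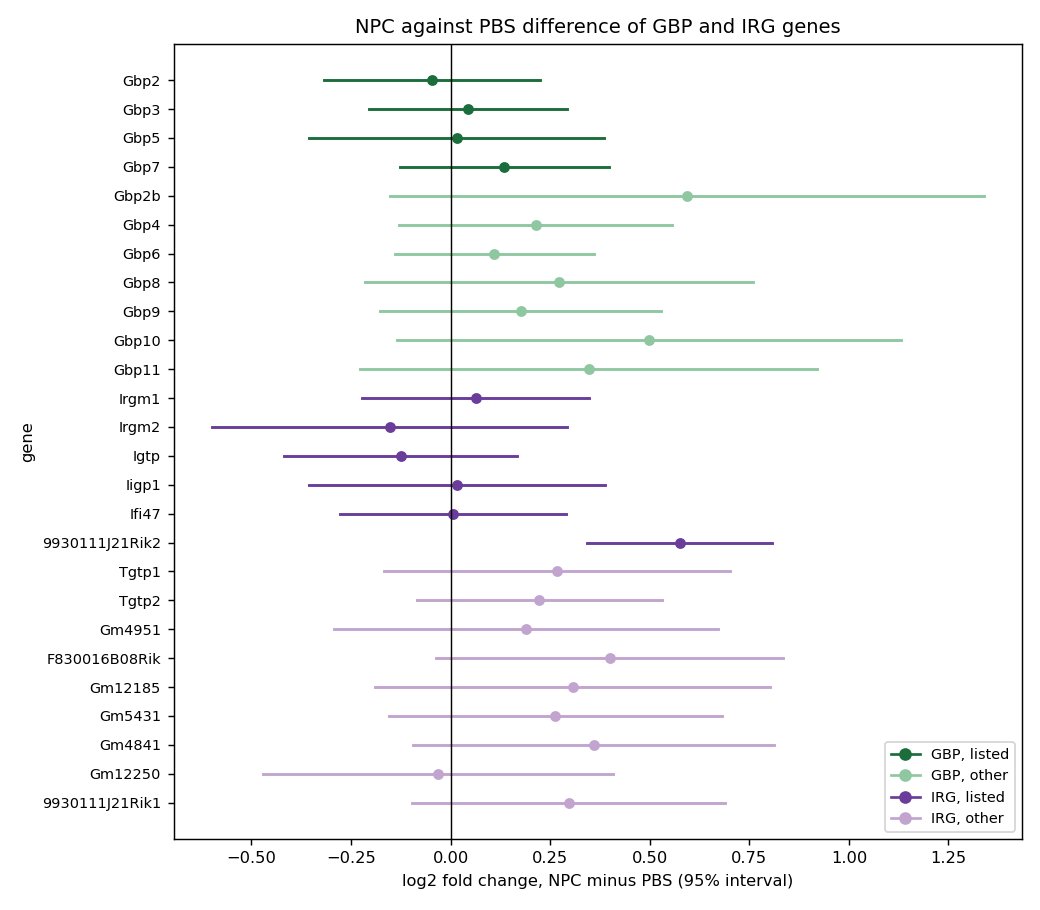
Difference between groups, log2 NPC minus PBS (x axis), for the listed members in dark colours and the other GBP and IRG genes of the table in light colours, GBP above IRG (y axis); points are the limma estimates and lines their 95% intervals. The intervals of 9 members cross 0, that of 9930111J21Rik2 runs from 0.34 to 0.81, and 15 of the 16 other genes drawn lie right of 0.

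Apart from the treatment groups, most pairs of members were positively correlated across libraries, with Gbp7 and 9930111J21Rik2 the least like the rest. With each library set against its own group mean, Irgm2 had the widest spread (SD 0.37), followed by Gbp5 and Iigp1 (0.29 each), and 9930111J21Rik2 the narrowest (0.083), against a median of 0.27 over all genes. The 15 pairs of IRG genes had Pearson correlations of 0.24 to 0.89 with a median of 0.69 over 8 libraries, while the 6 GBP pairs ran from −0.10 to 0.71 with a median of 0.32, and the 24 pairs between families from −0.38 to 0.85 with a median of 0.51. The points of these correlations share library, depth and scaling, and they are given as a description. NPC A and PBS 1, the libraries with low Fos, were the highest of their groups in Irgm2 and Iigp1. Without them the median was 0.76 for IRG pairs, of which 10 of 15 stayed above 0, the pairs below 0 being those with 9930111J21Rik2, and 0.59 for GBP pairs.

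Irgm2 and Iigp1 gave the closest pair within the IRG family (r 0.89), and Gbp2 and Gbp7 the closest within the GBP family (0.71). Igtp and Gbp3, on different chromosomes, were at 0.85, and Iigp1 and Gbp5 also at 0.85, within the range of the IRG pairs. The neighbours Igtp and Irgm2, whose promoters are shown above, were at 0.85, or 0.94 without NPC A and PBS 1. Against the mean of the other 9 members, Iigp1 and Igtp both stood at 0.91, while 9930111J21Rik2 was at 0.48 and Gbp7 at 0.14. The mean GBP and mean IRG deviations had r 0.75 and Spearman's rho 0.74 over 8 libraries, with r 0.60 without PBS 2 and PBS 1, the libraries farthest from the median in GBP, and 0.79 without PBS 1 and NPC A.

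**Figure D4:**
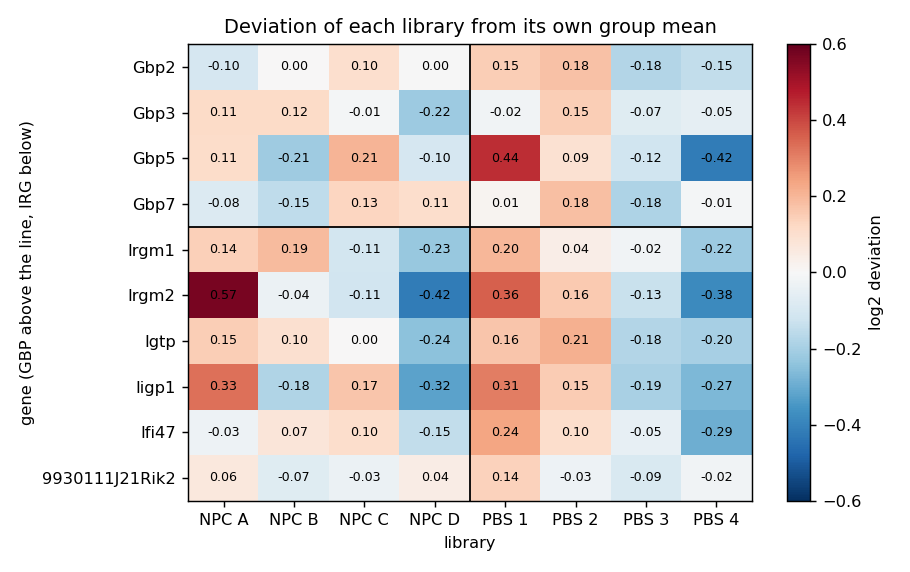
Deviation of each library (x axis) from the mean of its own group, log2 scale, for each member (y axis), with GBP genes above the horizontal line and IRG genes below, NPC libraries left of the vertical line and PBS libraries right; red is above and blue below the group mean. PBS 1 is above its group mean in 9 of 10 genes and PBS 4 below in all 10, and Irgm2 reaches 0.57 in NPC A.

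Genes of the signalling route to these GTPases did not pass the threshold either. Genes of interferon receptors and their signalling counted 12 higher and 7 lower of 19, with a median of 0.04. Irf1, an interferon-induced transcription factor that binds ISRE letters, was at 7.67, 7.33, 7.39 and 6.97 in NPC A to D, against 8.31, 7.59, 7.51 and 7.21 in PBS 1 to 4. PBS 1 was the highest and NPC D the lowest library, with a difference of −0.31 (SE 0.21, interval −0.77 to 0.15). Irf8, a factor of monocyte and dendritic cell development, differed by 0.02 (SE 0.11).

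Of the receptor chains, Ifngr1, which binds interferon-γ, differed by 0.12 (SE 0.13) with overlapping groups. Ifngr2, the signalling chain, was at 7.00, 6.86, 7.00 and 7.05 in NPC A to D, against 7.24, 7.17, 7.06 and 7.06 in PBS 1 to 4, and all NPC libraries were below all PBS libraries by a narrow margin. Its difference was −0.16 (SE 0.10, interval −0.38 to 0.06), and it was the 1 gene of 19 in this list whose groups did not overlap, a share near the 6.78% of the whole table. Pias1, an inhibitor of interferon signalling, differed by 0.33 (SE 0.12) and Usp18, an inhibitor of type I interferon signalling, by 0.25 (SE 0.17). Ifng, the ligand itself, had 12 to 102 reads in a library and differed by −0.03 (SE 0.36), with an interval of −0.80 to 0.74, so a difference up to these bounds is not excluded.

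Irf1 varied between libraries with the IRG genes. With each library set against its group mean, r with the IRG mean was 0.93 over 8 libraries (rho 0.90), and 0.91 without PBS 1 and NPC A. With the GBP mean, r was 0.67 (rho 0.64). Among other genes named here, r with the IRG mean was 0.42 for Ifngr2, −0.04 for Irf8, −0.53 for Ifngr1 and −0.50 for Ifng. It was −0.42 for Cxcl9 and −0.32 for Cxcl10. Without PBS 1 and NPC A, these values were 0.03, 0.56, 0.36, −0.25, 0.15 and 0.38, in the same order. For Fos, r with the IRG mean was −0.77 and was −0.22 without those libraries. Outside both families, the genes most like the GBP mean were Cmtm7 (r 0.97), Gm11110 (0.95), Sertad3 (0.95), Vps72 (0.94) and Arl6ip4 (0.94), and those most like the IRG mean were Fam173a (0.98), Pik3r2 (0.98), Dennd6b (0.97), Phc2 (0.96) and Akna (0.96). Some of these genes were near the floor, where r is poorly measured. Mean log2 levels in NPC and PBS were 0.77 and 0.40 for Dennd6b, 1.25 and 1.00 for Sertad3, and 1.53 and 1.79 for Gm11110. Of 12226 genes compared, 14 had r above 0.9 with the GBP mean and 68 with the IRG mean, all over the same 8 libraries.

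**Figure D5:**
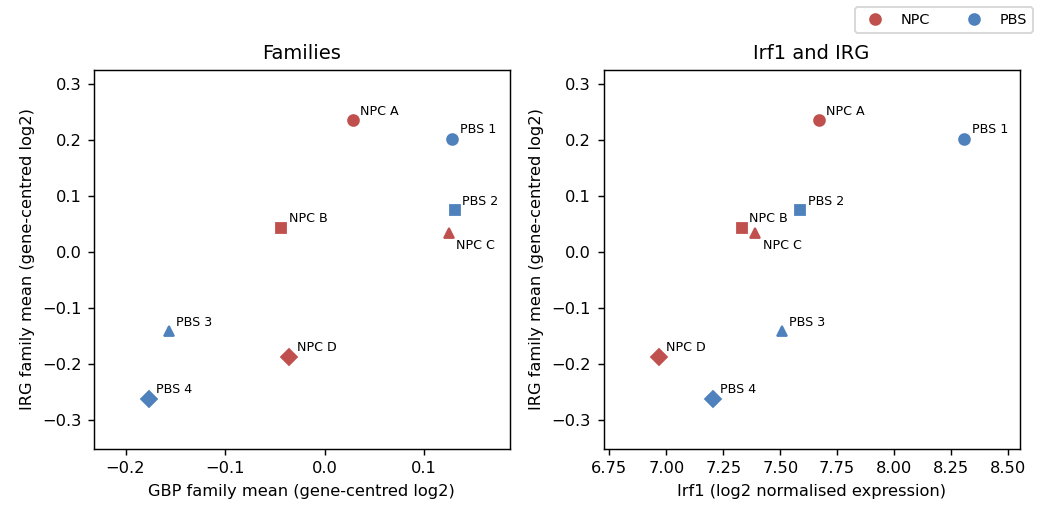
Left, mean of the IRG members against mean of the GBP members, both gene-centred log2 values; right, the IRG mean against log2 normalised expression of Irf1. Each point is a library, NPC in red and PBS in blue; NPC D and PBS 4 lie low in the IRG mean at −0.19 and −0.26, and NPC A and PBS 1 lie high at 0.24 and 0.20, in both groups alike.

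Counts of other interferon targets were divided in direction. Targets of interferon-γ counted 9 higher and 13 lower of 22, with a median of −0.10, smaller than its spread between replicates of 0.18. That median was below 0 in 16 of 18 alternatives. It was 0.04 without PBS 1 and 0.006 without PBS 1 and NPC A, so its sign depended on 1 library. Psmb8, an immunoproteasome subunit, differed by −0.37 (SE 0.16), the MHC class I gene H2-K1 by −0.30 (SE 0.17) with groups that did not overlap, and the Fc receptor gene Fcgr1 by −0.19 (SE 0.11). H2-K1 was the 1 gene of 22 in this list whose groups did not overlap, against 6.78% of the whole table. The chemokine genes Cxcl9 and Cxcl10 had differences of 0.18 (SE 0.22) and 0.23 (SE 0.17). Targets of type I interferon counted 26 higher and 2 lower of 28, with a median of 0.15. Groups did not overlap for 5 of the 28, all with NPC higher, a larger share than the 3.53% of the whole table. The list was not tested as a set. The antiviral genes Ifi44, Herc6 and the RNA sensor Ifih1 differed by 0.63 (SE 0.14), 0.44 (SE 0.12) and 0.43 (SE 0.12). None of these genes passed the adjusted threshold, and the transcripts of Ifi44, Herc6 and Ifih1 have GC contents of 39.4%, 39.4% and 42.8%, against 55.8% for Psmb8 and 56.3% for H2-K1. The median of the type I list was 0.08 after the correction for GC content and length.

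The partners of the GTPases were measured as well. A list of ATG8 conjugation genes and other autophagy genes, such as initiators and cargo receptors, counted 5 higher and 10 lower of 15, with a median of −0.12. Map1lc3b, an ATG8-like protein, was at 5.64, 5.57, 5.94 and 5.93 in NPC A to D, against 5.98, 6.15, 6.13 and 6.08 in PBS 1 to 4, with all NPC libraries below all PBS libraries and a difference of −0.32 (SE 0.12). Map1lc3b was the 1 gene of 15 in this list whose groups did not overlap, a share near the 6.78% of the whole table. The autophagy initiator Becn1 differed by −0.24 (SE 0.13) and the cargo receptor Sqstm1 by −0.31 (SE 0.18), both with overlapping groups. Enzymes of prenylation counted 3 higher and 3 lower of 6, with a median of 0.01; Icmt differed by −0.47 (SE 0.25), Fnta by −0.19 (SE 0.16) and Fntb by 0.16 (SE 0.25). Inflammasome and other effector genes counted 7 higher and 6 lower of 13, with a median of 0.08. Aim2, the DNA sensor that GBPs give access to bacterial DNA, differed by 0.46 (SE 0.13) with groups that did not overlap, the lipopolysaccharide sensor Casp4 by 0.35 (SE 0.14) and the cytokine gene Il18 by 0.37 (SE 0.18). Aim2 was the 1 gene of 13 in this list whose groups did not overlap, a share near the 6.78% of the whole table. No gene of these lists passed the adjusted threshold. Of the genes that were higher, GC content was 42.8% for Aim2, 42.0% for Casp4, 43.0% for Il18 and 54.9% for Fntb. Of those that were lower, it was 52.6% for Map1lc3b, 54.9% for Sqstm1, 54.1% for Icmt, 45.0% for Becn1 and 48.5% for Fnta. With the correction for GC content and length, the median was −0.06 for the autophagy list and −0.05 for the inflammasome list.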

How the data were processed

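RNA of 8 sorted moDC samples was amplified with Ovation RNA-Seq V2 and sequenced as single-end 150-base reads, per the labels' protocols. The submitters' processing notes name build mm10 and, as tools, limma, HTSeq 0.5.3, STAR 2.3.0 and Trimmomatic; the annotation, strand setting and any gene filter were not given in the sources used here. The authors deposited log2 normalised expression values, 1 column per library. Their steps are whole reads plus 0.5 (100% within 0.01), so reads were recovered for depth, thinning and voom weights.

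Groups came from the sample titles. Differences, SEs and intervals came from limma 3.58.1 (R 4.3.3; two-sided, trended variances, treatment as sole term, Benjamini-Hochberg adjustment across 12256 genes). With 4 libraries per group and shallow NPC libraries, precision is limited. Family means used gene-centred values. Of the gene symbols, 92.8% matched 1 gene in GENCODE vM21; its APPRIS principal transcript, where tagged, gave length and GC content. Shared stretches are identical 150-base runs of transcripts. Plots used matplotlib 3.10.9. Fits were tested on simulated data.

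The members, the gene lists and the tests were chosen with earlier results of these data known. Named were all members, the other family genes, up to 3 genes per pathway list by smallest unadjusted p, 8 pathway genes (1 is not reported here), 5 most alike genes per family, and Fos. Alternatives covered normalisation, offset, weights, filters, thinning, families' membership and left-out libraries. The correction for GC content and length was chosen after seeing the data.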

Additional observations from a re-analysis of the deposited data

How the results depend on the processing

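Among the alternatives run, no family difference moved by more than the spread between replicates except the GBP mean with the 7 further Gbp genes of the table, 0.21 against 0.04. Leaving out 1 library at a time gave −0.02 (without PBS 4) to 0.09 (without PBS 2) for the GBP mean, −0.01 (without PBS 4) to 0.14 (without PBS 1) for the IRG mean and −0.04 (without NPC A) to 0.08 (without NPC D) for IRG minus GBP. The count of genes past the adjusted threshold was 0 in all of these fits, for the whole table and for each list, and with voom or array weights; genes at an unadjusted p under 0.05 numbered 792 (without PBS 2) to 2139 (array weights), against 1387. The difference of 9930111J21Rik2 was 0.40 to 0.62 over 18 alternatives. With the correction for GC content and length, Gbp7 was at −0.06 and the median of the prenylation enzymes at −0.18; without PBS 1 and NPC A, the median of the autophagy genes was −0.20. The causes were not tested.

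A count test with edgeR on recovered reads was not run, because the deposited values are log2. No paired analysis was possible because PBS libraries are numbered 1 to 4 and NPC libraries lettered A to D, with no shared number. Depth limits Gbp2b, Gbp10, Gbp11, Fntb and Ifng, each with under 20 reads in at least 1 library. Low levels also limit Dennd6b, Sertad3 and Gm11110 among the most alike genes.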
